A study of Mus musculus with 3 samples.

Results

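Nuclear receptors are transcription factors whose activity is, for many of them, set by small molecules such as bile acids, oxysterols, fatty acids, steroids and retinoids. The 47 genes described here are the mouse nuclear receptor genes of a list chosen by name, taken from 37620 gene identifiers measured by mRNA sequencing, and all 47 were found in the tables. The cells were primary hepatocytes of C57BL/6 mice at passage 1, obtained by collagenase perfusion and kept on gelatin-coated plates in Williams' Medium E with serum and insulin. Tauroursodeoxycholic acid (TUDCA), a bile acid conjugated to taurine, was given to the cells of 2 libraries at a labelled 100 mM for 24 h, and the solvent DMSO to the cells of 1 library, whose time is not labelled. The dose is printed as labelled and may hold an error of unit, and if the culture times differed, that and TUDCA cannot be told apart. Every value is in RPKM (reads scaled by gene length and library total), and pairs of TUDCA values are those of replicates 1 and 2 in that order.

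Bile acids are ligands of FXR (gene Nr1h4), which binds DNA with a partner of the RXR family and, in liver, induces the small heterodimer partner SHP (gene Nr0b2), a receptor without a DNA-binding domain that represses other nuclear receptors. Some bile acids also activate PXR (gene Nr1i2), which induces enzymes and transporters that clear foreign compounds and toxic bile acids. HNF4A (gene Hnf4a) binds DNA as a homodimer and maintains the expression of many hepatocyte genes.

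The totals behind the RPKM values were between 9757547 and 10774289 reads per library. All tests compare 2 TUDCA libraries with 1 DMSO library, which has no replicate, and the series names 2 independent experiments but not which libraries belong to each, so the spread within TUDCA may be technical. Hepatocyte transcripts were abundant, with the albumin gene Alb at 7177 and 6111 RPKM in TUDCA, against 5771 RPKM in DMSO. The 10 hepatocyte markers summed to 15071 and 13101 RPKM in TUDCA, against 11777 in DMSO. Of these 10, 1 was called higher by limma and 2 by voom, and 4 were higher at an unadjusted p below 0.05, with 0 lower. Of all 11300 tested genes, limma called 1.77% higher and 0.876% lower, and voom 187 higher and 80 lower. An unadjusted limma p below 0.05 was found for 1216 of them, in either direction. Markers of other cells were present too. The 8 Kupffer cell and macrophage markers summed to 212.1 and 224.6 RPKM in TUDCA, against 230.4 in DMSO, and the 8 of stellate cells and fibroblasts to 12.3 and 10.5 RPKM, against 14.2. The 7 endothelial markers summed to 4.69 and 3.83 RPKM in TUDCA, against 2.89 in DMSO, and no marker of these 3 cell types was called (0 with an unadjusted p below 0.05, and 0 by voom). The 7 cholangiocyte markers summed to 821.2 and 647.6 RPKM in TUDCA, against 437.1 in DMSO, nearly all of it Spp1 (called higher), with Cftr listed at 0. The 8 markers of epidermal keratinocytes summed to 155.8 and 118.0 RPKM in TUDCA, against 834.0 RPKM in DMSO, nearly all of it Crct1 (138.2 and 101.3 RPKM in TUDCA, against 801.9 RPKM in DMSO), with Crct1 and Krt5 called lower and Krt14, Krt1 and Trp63 listed at 0 in all 3 libraries. In bulk RNA, a change in the number of cells of a type and a change of RNA per cell cannot be told apart.

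Of the 47 receptor genes, 32 reached a mean of 1 RPKM over the 3 libraries and were tested, which is 68.1% of the family and compares with 30.0% of all identifiers. Among them 18 averaged at least 10 RPKM and 7 at least 50 RPKM. Hnf4a stood highest in RPKM in every library, with 198.6 and 191.2 RPKM in TUDCA, against 115.0 RPKM in DMSO. It was followed by Rxra and Rxrb (retinoid X receptors, the shared partners of many family members), Nr2f6 (EAR2, an orphan receptor), Nr1h2 and Nr1h3 (the oxysterol receptors LXR-beta and LXR-alpha) and Esrra (ERR-alpha, an orphan receptor of energy metabolism). These 7 genes made up 72.9% and 73.3% of the summed RPKM of the family in TUDCA, against 77.0% in DMSO. The whole family summed to 951.3 and 991.9 RPKM in TUDCA, against 882.4 RPKM in DMSO. These ranks and shares depend on the gene length used. The length that fits the Hnf4a values was 758 bases, against an annotated exon length of 4828 bases. For Rxra it was 2227 against 5462 bases. By reads, the smallest whole numbers that fit, Rxra stood above Hnf4a in every library. Rxra had 2464 and 2331 reads in TUDCA, against 2585 in DMSO, and Hnf4a 1469 and 1533, against 939.

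**Figure D1:**
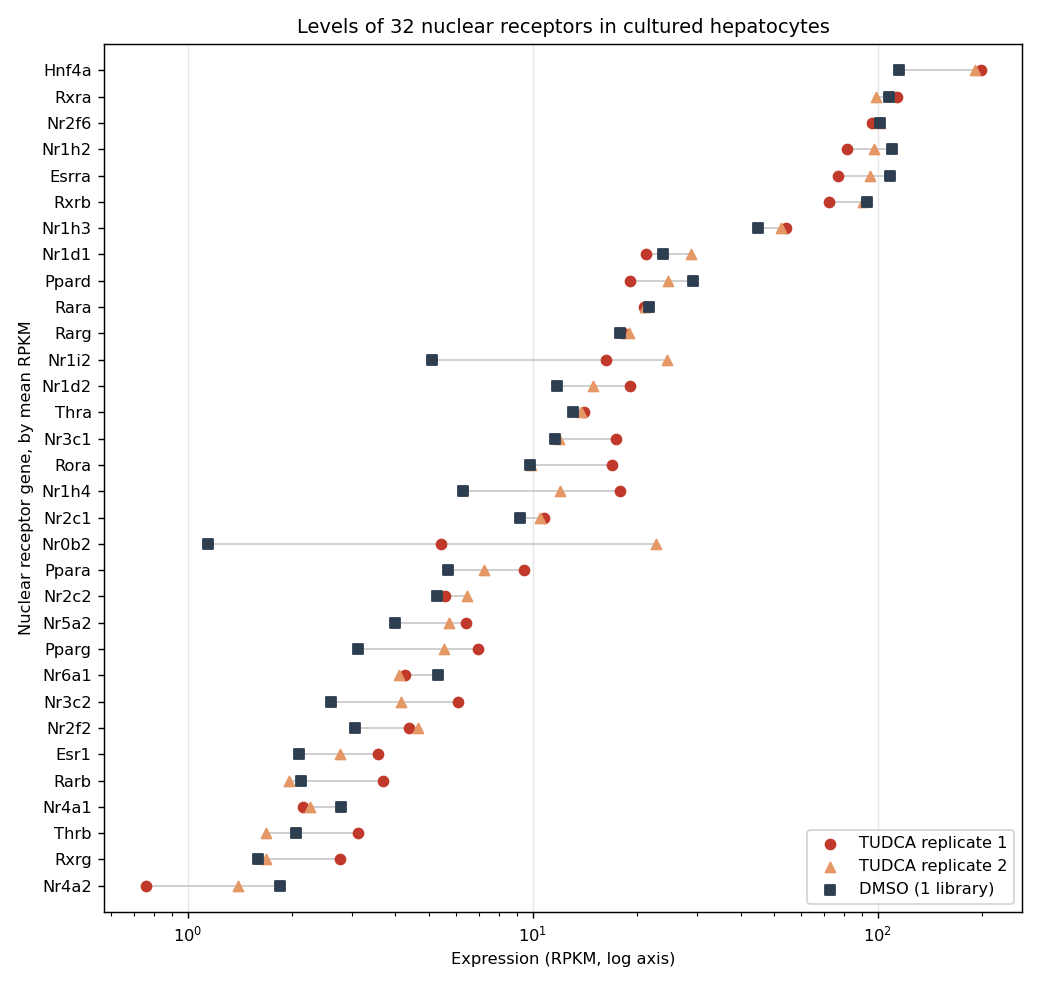
Expression of the 32 tested nuclear receptor genes in RPKM on a log axis, ordered by their mean, with circles and triangles for TUDCA replicates 1 and 2 and squares for the DMSO library. Hnf4a lies at the top with 198.6 and 191.2 RPKM in TUDCA, against 115.0 in DMSO, and the widest gaps between DMSO and TUDCA are those of Nr0b2 and Nr1i2.

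The order of the levels in the plot of RPKM by gene is loose. Of the 31 steps between neighbours, 4 were separated in all 3 libraries, meaning that the lowest value of the upper gene exceeded the highest value of the lower gene. These were the steps from Hnf4a to Rxra, from Rxrb to Nr1h3, from Nr1h3 to Nr1d1 and from Rara to Rarg. At the other 27 steps the values of neighbouring genes overlapped.

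Of the 32 tested receptors, 4 were called higher with TUDCA and 0 lower, and 28 had no call (limma on log2(RPKM + 1), Benjamini-Hochberg adjusted p below 0.05 over 11300 genes). The 4 were Nr0b2, Nr1i2, Nr1h4 and Hnf4a, or 12.5% of the tested members, while 1.77% of all tested genes were called higher and 0.876% lower. Without adjustment 6 receptors had a p below 0.05, all higher in TUDCA and including also Nr3c2 and Pparg. Of all 11300 tested genes 1216 had such a p, in either direction. With voom on the recovered reads the same 4 were higher and 0 lower, against 187 higher and 80 lower of all 11300 genes. Median centring and limma without the trend called 3, without Hnf4a, and robust estimation 3, without Nr0b2. All 4 calls were lost when the filter on low genes was set at 0.3 RPKM or left out, with 0 receptors called in either direction. At 0.3 RPKM the limma adjusted p was 0.298 for Nr0b2, 0.0890 for Nr1i2, 0.310 for Nr1h4 and 0.204 for Hnf4a. There 6 receptors had an unadjusted p below 0.05, against 1152 of all 13384 genes. Without a filter 2 receptors were at that level, Hnf4a and Nr1i2, against 1696 of 19146 genes. A rule of size without a test, a log2 difference of at least 1 in both TUDCA libraries, was met upwards by Nr0b2 and Nr1i2 (0.77% of all genes) and downwards by none (0.283% of all genes).

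**Figure D2:**
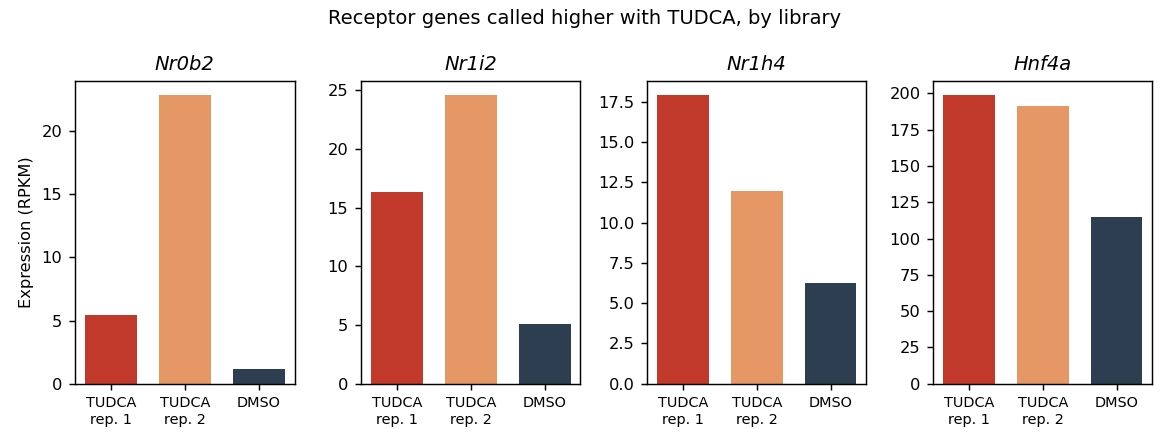
RPKM in each library for the 4 receptor genes called higher, with bars for TUDCA replicates 1 and 2 left of the bar for DMSO and a separate axis for each gene starting at 0. For each gene both TUDCA bars exceed the DMSO bar, and the TUDCA bars of Nr0b2 differ the most, at 5.43 and 22.8 RPKM, against 1.15 in DMSO.

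The upstream sequence of the 4 genes is shown because they were called together. RefSeq (GRCm38.p6) gave promoter windows for 43 of the 47 members, and no window was matched for Nr5a1, Thra, Hnf4g and Nr3c1. Each line holds the 250 bases before the RefSeq start on the strand of the gene, and capitals mark matches on either strand to AGGTCA and GGGTCA, core sites that nuclear receptors bind. The windows are chr4:133553126-133553375 (+ strand) for Nr0b2, chr16:38294825-38295074 (- strand) for Nr1i2, chr10:89506659-89506908 (- strand) for Nr1h4 and chr2:163546905-163547154 (+ strand) for Hnf4a.
Nr0b2: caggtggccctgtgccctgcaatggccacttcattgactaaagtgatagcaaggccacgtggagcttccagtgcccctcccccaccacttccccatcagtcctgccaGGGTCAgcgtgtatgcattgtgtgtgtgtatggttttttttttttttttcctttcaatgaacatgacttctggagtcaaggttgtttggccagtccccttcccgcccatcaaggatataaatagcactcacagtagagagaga
Nr1i2: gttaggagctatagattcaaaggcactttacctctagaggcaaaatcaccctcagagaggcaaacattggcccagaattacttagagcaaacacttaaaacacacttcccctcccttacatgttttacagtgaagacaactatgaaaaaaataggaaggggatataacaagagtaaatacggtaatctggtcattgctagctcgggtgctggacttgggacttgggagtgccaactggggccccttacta
Nr1h4: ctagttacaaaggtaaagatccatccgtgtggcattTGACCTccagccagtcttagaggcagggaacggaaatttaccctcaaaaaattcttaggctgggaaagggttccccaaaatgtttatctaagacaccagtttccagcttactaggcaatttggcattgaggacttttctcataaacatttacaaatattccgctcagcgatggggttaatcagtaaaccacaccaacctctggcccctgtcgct
Hnf4a: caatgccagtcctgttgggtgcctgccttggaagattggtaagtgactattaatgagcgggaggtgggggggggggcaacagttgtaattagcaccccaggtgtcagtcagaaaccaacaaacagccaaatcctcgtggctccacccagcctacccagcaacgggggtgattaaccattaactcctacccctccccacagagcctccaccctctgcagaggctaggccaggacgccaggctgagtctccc

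In these windows Nr0b2 had GGGTCA starting 143 bases before the start, and Nr1h4 had AGGTCA, read as TGACCT, 214 bases before. In GENCODE M21 Nr1h4 reaches upstream to base 89533585, so its window lies inside the gene, and the upstream start was not examined. Hnf4a begins there at base 163506808, so its printed window lies inside the gene too. The windows of Nr1i2 and Hnf4a held neither motif, nor did the window of a second RefSeq start of Hnf4a, which is upstream (chr2:163506607-163506856). Such short motifs are common. Of 32851 windows of all genes, 14.0% held AGGTCA and 11.65% GGGTCA, and of the 64 windows of the family 11 held AGGTCA and 11 GGGTCA, or 17.2% for each motif. The inverted repeat AGGTCANTGACCT, the consensus that FXR and RXR bind, was found in 2 windows of all genes and in 0 of the family.

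Among receptors of bile acids, foreign compounds and oxysterols (8 members, 5 tested), 3 were called higher, with a median log2 fold change of 1.11. Nr0b2 (ENSMUSG00000037583, SHP) had 5.43 and 22.8 RPKM in TUDCA, against 1.15 RPKM in DMSO. Its promoter window is the one with GGGTCA above. DMSO lay below both TUDCA libraries, which differed from each other by a ratio of 4.20. The reads behind these values were 60 and 273 in TUDCA, against 14 in DMSO, as the smallest whole numbers that fit. The gene length that fits, 1132 bases, equals the annotated exon length in GENCODE M21, as for Nr1i2 (2553 bases). For Nr1h4 it was shorter, 1987 against 2303 bases, and for Hnf4a 758 against 4828 bases. The exact Poisson 95% intervals of the Nr0b2 reads were 4.15 to 6.99 and 20.2 to 25.7 RPKM in TUDCA, against 0.628 to 1.93 RPKM in DMSO, for counting error only. The mean log2 fold change of Nr0b2 was 2.53 ± 0.29 (SE, limma adjusted p = 4.4e-15), with 1.58 in replicate 1 and 3.47 in replicate 2. This SE comes from genes of like level and not from the spread of Nr0b2 itself, and limma with robust estimation, which frees that spread, gave an SE of 1.56 and no call (adjusted p = 0.855).

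Nr1i2 (ENSMUSG00000022809, PXR) had 16.3 and 24.6 RPKM in TUDCA, against 5.09 RPKM in DMSO, a ratio of the TUDCA mean (20.4 ± 5.81, SD, n = 2) to DMSO of 4.02. Both TUDCA libraries stood above DMSO, with 407 and 663 reads, against 140 reads. The log2 fold change was 1.79 ± 0.27 (SE, limma adjusted p = 7.1e-09), and 1.51 and 2.07 in the single libraries. Nr1h4 (ENSMUSG00000047638, FXR) had 17.9 and 11.99 RPKM in TUDCA, against 6.26 RPKM in DMSO, so that here replicate 1 was the higher one, unlike for Nr0b2 and Nr1i2. DMSO was again below both. The log2 fold change was 1.11 ± 0.27 (SE, limma adjusted p = 0.00326), and 1.38 and 0.84 in the single libraries.

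The oxysterol receptors were not called. Nr1h2 had 81.3 and 97.4 RPKM in TUDCA, against 109.6 RPKM in DMSO (log2 fold change -0.30, limma adjusted p = 0.716), and Nr1h3 had 54.3 and 52.5 RPKM, against 44.9 RPKM (0.24, adjusted p = 0.820). DMSO lay above both TUDCA libraries for Nr1h2 and below both for Nr1h3. Nr1i3 encodes CAR, the second xenobiotic receptor of liver, and had 0.720 and 0.665 RPKM in TUDCA, against 0.381 RPKM in DMSO, on 12 and 12 reads, against 7 reads, too low to be tested. In GENCODE M21 it shares 3304 exonic bases on the opposite strand with Tomm40l, which had 7.72 and 9.85 RPKM in TUDCA, against 7.98 RPKM in DMSO. The gene length that fits the Nr1i3 values was 1707 bases, less than this overlap, so the counted exons may not hold all of it. Reads from bases counted for both genes cannot be told apart. Vdr (the vitamin D receptor, also activated by a secondary bile acid) had 1 and 4 reads in TUDCA, against 2 in DMSO, and Nr1h5 (FXR-beta) 1 and 1 reads, against 0. At these depths a change of Nr1i3, Vdr or Nr1h5 was not detectable.

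Among orphan receptors grouped by hand with Hnf4a (8 members, 6 tested), 1 was called higher, with a median log2 fold change of 0.32. Hnf4a (ENSMUSG00000017950) averaged 194.9 ± 5.22 RPKM in TUDCA (SD, n = 2), against 115.0 RPKM in DMSO, a ratio of 1.70. The TUDCA libraries lay close together and both above DMSO, which gave log2 fold changes of 0.78 and 0.73 and a mean of 0.76 ± 0.21 (SE, limma adjusted p = 0.0123). This call was lost after median centring (adjusted p = 0.153) and in limma without the variance trend (adjusted p = 0.160). Of the hepatocyte markers 1 of 10 (Fgb) was called higher by limma and 2 by voom. Of the keratinocyte markers 2 of the 3 tested were called lower. By limma 1.77% of all tested genes were called higher and 0.876% lower. The sums of both lists are given above, and the part of these markers in the Hnf4a result was not tested.

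The other members of this group were not called. Nr5a2 (LRH-1, which activates bile acid synthesis genes and is repressed by SHP) had 6.40 and 5.72 RPKM in TUDCA, against 4.00 RPKM in DMSO (log2 fold change 0.50, limma adjusted p = 0.600). Nr2f2 (COUP-TFII) had 4.39 and 4.66 RPKM, against 3.06 RPKM (0.44, adjusted p = 0.680), and Nr2c1 (TR2) 10.8 and 10.5 RPKM, against 9.18 RPKM (0.19, adjusted p = 0.919). For each of these 3 genes DMSO was below both TUDCA libraries. Nr2f6 had 96.4 and 101.1 RPKM in TUDCA, against 101.3 RPKM in DMSO (log2 fold change -0.04), a difference of the size of that between the replicates. Nr2c2 (TR4) had 5.56 and 6.44 RPKM, against 5.29 RPKM (0.15), and shares 4590 exonic bases with Mrps25 on the opposite strand, which had 12.7 and 14.3 RPKM, against 12.5 RPKM. Nr2f6 shares 1622 bases with Ocel1 (6.08 and 6.69 RPKM in TUDCA, against 7.16 RPKM in DMSO). These overlaps are those of GENCODE M21. The gene lengths that fit were shorter, 719 bases for Nr2c2 and 866 for Nr2f6, so the counted exons may not hold all of them. The sources used here do not give whether counting used strand, and reads from bases counted for both genes of a pair cannot be told apart. Hnf4g, a close relative of Hnf4a, had 1 and 3 reads in TUDCA, against 1 in DMSO, and Nr2f1 (COUP-TFI) 1 and 0 reads, against 0.

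Rxra and Rxrb stood above most receptors that pair with them, and none of the 3 RXR genes was called. Rxra had 113.4 and 99.0 RPKM in TUDCA, against 107.7 RPKM in DMSO (log2 fold change -0.02, limma adjusted p = 0.995). DMSO lay between the TUDCA libraries for Rxra. Rxrb had 72.4 and 90.7 RPKM, against 92.9 RPKM (-0.19, adjusted p = 0.874), and Rxrg 2.77 and 1.68 RPKM, against 1.60 RPKM (0.29, adjusted p = 0.874). Rxra thus exceeded Nr1h4 and Nr1i2 on the RPKM scale in every library.

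Receptors of fatty acids and energy metabolism (6 members, 4 tested) had no call and a median log2 fold change of 0.07. Pparg, a regulator of lipid storage that is low in normal liver, had 6.95 and 5.53 RPKM in TUDCA, against 3.12 RPKM in DMSO (log2 fold change 0.81 ± 0.30, SE, limma unadjusted p = 0.00652, adjusted p = 0.149). It had the largest difference among the receptors that were not called, and both TUDCA libraries lay above DMSO. Ppara, the main regulator of hepatic fatty acid oxidation, had 9.46 and 7.22 RPKM in TUDCA, against 5.67 RPKM in DMSO (0.48, adjusted p = 0.611). For Ppard (19.2 and 24.7 RPKM in TUDCA, against 29.1 RPKM in DMSO) and Esrra (76.8 and 94.7 RPKM, against 108.1 RPKM) DMSO lay above both TUDCA libraries, with log2 fold changes of -0.40 and -0.34 (adjusted p = 0.627 and 0.641). The 3 PPAR genes thus did not share a sign. Esrrb and Esrrg had at most 5 reads in any library.

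The 5 receptors of retinoic acid and thyroid hormone were all tested and none was called, with a median log2 fold change of 0.08. Rara had 21.0 and 21.1 RPKM in TUDCA, against 21.7 RPKM in DMSO, Rarg 18.3 and 19.0 RPKM, against 17.9 RPKM, and Thra 14.1 and 13.8 RPKM, against 13.1 RPKM, all with log2 fold changes between -0.04 and 0.08. For these 3 genes the 3 libraries lay within 0.10 of each other on the log2 scale. Rarb (3.69 and 1.96 RPKM in TUDCA, against 2.12 RPKM in DMSO) and Thrb (3.11 and 1.69 RPKM, against 2.06 RPKM) had DMSO between the TUDCA libraries. Rarb shares 1793 exonic bases on the opposite strand with Top2b, which was also highest in TUDCA replicate 1 (34.8 and 21.7 RPKM in TUDCA, against 18.1 RPKM in DMSO).

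Of the 5 steroid receptors 3 were tested and none was called, and all 3 had DMSO below both TUDCA libraries (median log2 fold change 0.42). Nr3c2, the mineralocorticoid receptor, had 6.09 and 4.15 RPKM in TUDCA, against 2.61 RPKM in DMSO (log2 fold change 0.74 ± 0.30, SE, limma unadjusted p = 0.0133, adjusted p = 0.228). The oestrogen receptor gene Esr1 had 3.56 and 2.77 RPKM, against 2.10 RPKM (0.42, adjusted p = 0.735). Nr3c1, the glucocorticoid receptor, had 17.4 and 11.9 RPKM in TUDCA, against 11.6 RPKM in DMSO, a difference of 0.55 in replicate 1 and 0.03 in replicate 2 on the log2 scale. Esr2 and Pgr were listed at 0 in all 3 libraries.

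Of the clock receptors 3 of 4 were tested and none was called (median log2 fold change 0.37). Nr1d2 (REV-ERB-beta) had 19.1 and 14.9 RPKM in TUDCA, against 11.8 RPKM in DMSO (0.49, limma adjusted p = 0.515), and its relative Nr1d1 (REV-ERB-alpha) 21.3 and 28.7 RPKM, against 23.8 RPKM (0.05, adjusted p = 0.987). These 2 repressors therefore differed in which TUDCA library was higher. Nr1d1 shares 263 exonic bases with Thra on the opposite strand. Rora, which activates the genes that REV-ERB represses, had 16.9 and 9.85 RPKM in TUDCA, against 9.81 RPKM in DMSO, so that replicate 1 stood apart and replicate 2 matched DMSO (log2 differences 0.73 and 0.01). Rorb had at most 6 reads in any library.

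The immediate early receptors Nr4a1 and Nr4a2, which many stimuli induce within a short time, had DMSO above both TUDCA libraries and were not called. Nr4a1 had 2.15 and 2.25 RPKM in TUDCA, against 2.78 RPKM in DMSO (log2 fold change -0.24, limma adjusted p = 0.901), and Nr4a2 0.758 and 1.40 RPKM, against 1.86 RPKM (-0.48, adjusted p = 0.673). Nr4a3 had 1 and 1 reads in TUDCA, against 0 in DMSO. Nr6a1, the germ cell nuclear factor, had 4.27 and 4.10 RPKM in TUDCA, against 5.31 RPKM in DMSO (-0.28, adjusted p = 0.862). Of the other receptors of gonads, adrenal gland, retina or brain, Nr0b1 and Nr2e3 were listed at 0 in all 3 libraries, Nr5a1 had 1 and 3 reads in TUDCA, against 2 in DMSO, and Nr2e1 0 and 1 reads, against 0.

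**Figure D3:**
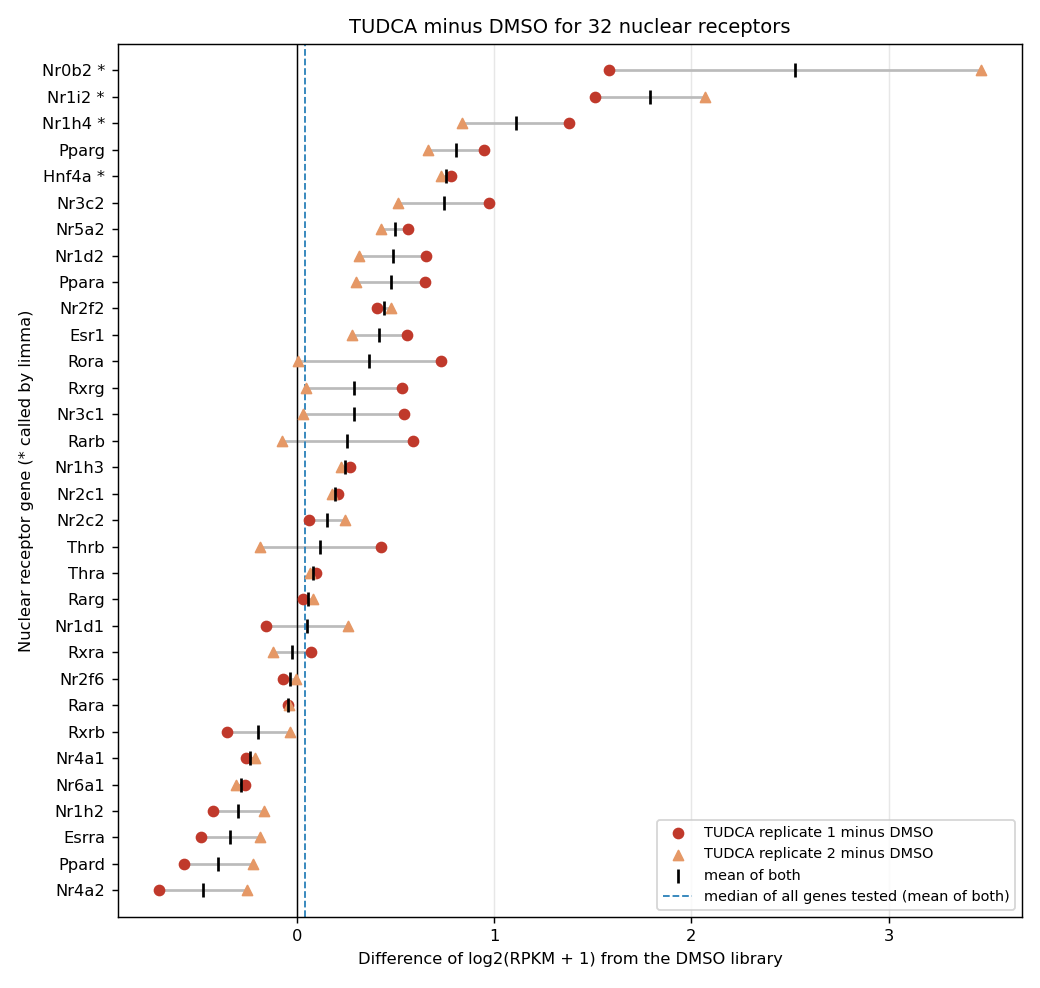
Difference of log2(RPKM + 1) from the DMSO library for the 32 tested receptors, with circles and triangles for TUDCA replicates 1 and 2, vertical ticks for their mean, a dashed line at the median of all 11300 tested genes (0.04) and asterisks at the 4 genes called by limma. The means run from -0.48 for Nr4a2 to 2.53 for Nr0b2, and the replicates of Nr0b2 lie farthest apart, at 1.58 and 3.47.

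Over the 32 receptors the median log2 fold change was 0.22, against 0.04 over all 11300 tested genes. It was 0.10 after quantile normalization, against -0.0076 for all genes, and 0.14 after median centring, against -0.04 for all genes. As deposited, the median was 0.34 in replicate 1 and 0.07 in replicate 2, against 0.06 and 0.02 for all genes. DMSO lay below both TUDCA libraries for 19 receptors, above both for 9 and between them for 4 (Rxra, Nr1d1, Rarb and Thrb), while it lay below both for 40.5% and above both for 30.4% of all genes. Among the 28 receptors not called, 18 mean differences were positive and 10 negative, between -0.48 and 0.81. The plot of differences from DMSO shows that the TUDCA replicates of several receptors disagreed by as much as the receptor differed from DMSO. The median absolute log2 difference between the replicates was 0.29 for the receptors and 0.20 for all tested genes.

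The replicates also differed with the length of the gene, a property examined after the data had been seen. Among tested genes with an annotated exon length of 6 kb or more (3423 genes, GENCODE M21) the median log2 difference of replicate 1 minus replicate 2 was 0.16, and among those under 2 kb (1775 genes) it was -0.09. Of the receptors 9 were 6 kb or longer, with a median difference of 0.28. They were Ppard, Nr2c2, Esr1, Thrb, Nr3c1, Nr2f2, Nr3c2, Rora and Nr6a1. Nr0b2 was the 1 tested receptor under 2 kb. Set against DMSO, tested genes of 6 kb or more had median log2 differences of 0.18 in replicate 1 and 0.01 in replicate 2. Those under 2 kb had -0.06 and 0.03. The part of gene length in the replicate differences and in the receptor medians against DMSO was not tested.

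**Figure D4:**
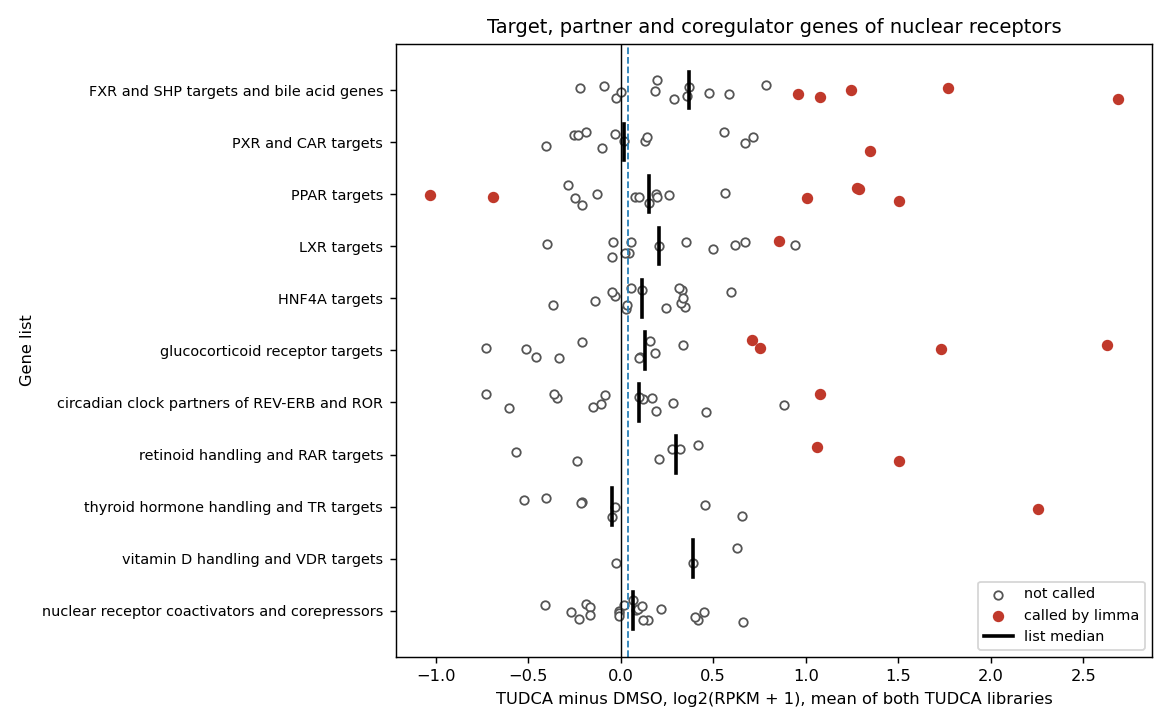
Mean log2(RPKM + 1) difference of both TUDCA libraries from DMSO for the tested genes of 11 lists of targets, partners and coregulators, with filled points for genes called by limma, open points for genes not called, a vertical bar at the median of each list and a dashed line at the median of all tested genes (0.04). Most points of every list are open, and called genes lie on both sides of 0 only among the PPAR targets.

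Genes that act downstream of or beside the receptors were read from the same test, and the lists were chosen by name. Each list is described by its counts, set against 1.77% of all tested genes called higher and 0.876% lower. Of the 11300 tested genes 1216 had an unadjusted p below 0.05 in either direction, and voom called 187 higher and 80 lower. Of 17 tested FXR and SHP targets and bile acid genes, 5 were called higher, 0 lower and 12 had no call (median log2 fold change 0.37, and 0.52 and 0.27 in the single libraries). Without adjustment 7 were higher and 0 lower at p below 0.05, and voom called 5 higher and 0 lower. Slc51b, which encodes the beta subunit of the exporter that moves bile acids into blood, had 6.51 and 34.1 RPKM in TUDCA, against 1.52 RPKM in DMSO (limma adjusted p = 4.0e-18), on 31 and 176 reads, against 8 reads. As for Nr0b2, replicate 2 stood far above replicate 1, and robust estimation ended the call (adjusted p = 0.880). Abcb4, the canalicular phospholipid transporter, had 103.9 and 116.5 RPKM in TUDCA, against 31.6 RPKM in DMSO (log2 fold change 1.77 ± 0.22, SE, adjusted p = 2.5e-13), with replicates that lay close together.

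The bile acid conjugating enzyme Baat had 8.83 and 4.25 RPKM in TUDCA, against 2.03 RPKM in DMSO (limma adjusted p = 0.00226). Fgg, the fibrinogen gamma chain, had 824.9 and 378.7 RPKM, against 264.9 RPKM, a call that robust estimation ended (adjusted p = 0.164). For both genes replicate 1 was the higher one, unlike for Nr0b2 and Slc51b. Apoc2, named after its values were seen because it completes the 5, had 286.0 and 221.9 RPKM in TUDCA, against 129.2 RPKM in DMSO. Slc51a, which encodes the partner subunit of Slc51b, Cyp7a1, the rate-limiting enzyme of bile acid synthesis that SHP represses, and Fgf15 were listed at 0 in all 3 libraries.

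Of 13 tested PXR and CAR targets, 1 was called higher and 0 lower, and 12 had no call (median log2 fold change 0.02). Without adjustment 4 were higher and 0 lower, and voom called 1 higher and 0 lower. Cyp3a11, the cytochrome P450 most used as a readout of PXR in mouse liver, had 83.1 and 71.9 RPKM in TUDCA, against 29.8 RPKM in DMSO (log2 fold change 1.35 ± 0.22, SE, limma adjusted p = 3.3e-07). It belongs to a family of similar genes between which reads can be split. Of the 15 tested HNF4A targets none was called by limma in either direction (median log2 fold change 0.11, 1 higher and 0 lower without adjustment, and 0 and 0 by voom). Apoa2 had 1991 and 2235 RPKM in TUDCA, against 2029 RPKM in DMSO, and Apoc3 872.6 and 854.8 RPKM, against 883.9 RPKM, so that DMSO lay between the TUDCA values for Apoa2 and close above both for Apoc3. With 1.77% of all tested genes called higher, counts of 0 of 15 and 1 of 13 lie near that share and are no result about either list.

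Targets of receptors that were not called also held called genes. Of 17 tested PPAR targets, 4 were called higher, 2 lower and 11 were not called (median 0.15). Acaa1b, a peroxisomal thiolase, had 21.6 and 23.8 RPKM in TUDCA, against 7.36 RPKM in DMSO, and Vnn1, a pantetheinase, 26.2 and 32.4 RPKM, against 11.3 RPKM. For both genes the TUDCA replicates lay close together and above DMSO. In the other direction, the lipid droplet gene Cidec had 4.47 and 3.38 RPKM in TUDCA, against 8.99 RPKM in DMSO (log2 fold change -1.03 ± 0.29, SE, limma adjusted p = 0.0231). Also called were Cd36, a fatty acid carrier, at 3.85 and 3.01 RPKM in TUDCA, against 1.20 RPKM in DMSO, and the lipid droplet gene Plin2, lower at 1221 and 1540 RPKM, against 2213 RPKM. They were named after their values were seen, and median centring ended both calls (limma adjusted p = 0.0518 for Cd36 and 0.0958 for Plin2).

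Of 14 glucocorticoid receptor targets, 4 were called higher and 0 lower, and 10 had no call (median 0.13, and 4 higher and 1 lower without adjustment). Pck1, the cytosolic enzyme that starts gluconeogenesis, had 5.03 and 10.6 RPKM in TUDCA, against 0.354 RPKM in DMSO, and G6pc (glucose-6-phosphatase) 5.99 and 2.55 RPKM, against 0.500 RPKM, with 7 reads of Pck1 and 13 of G6pc in DMSO. The replicates differed in opposite ways for these genes, and each DMSO value was below both. Mt2 (a metallothionein) had 1266 and 718.0 RPKM, against 564.6 RPKM, and Igfbp1 117.8 and 75.8 RPKM, against 57.5 RPKM. Both of these calls were lost after median centring (limma adjusted p = 0.168 and 0.217), and voom called 3 of the 4, without Igfbp1 (adjusted p = 0.0684).

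Of 13 tested LXR targets, 1 was called higher and 0 lower, and 12 had no call (median 0.21, and 5 higher and 0 lower without adjustment). It was the cholesterol exporter Abca1, with 22.7 and 14.0 RPKM in TUDCA, against 9.43 RPKM in DMSO (limma adjusted p = 0.0460), a call lost after quantile normalization and median centring and without the trend (adjusted p = 0.164, 0.0982 and 0.0745). Of 15 clock partners of REV-ERB and ROR, 1 was called higher, Per3, with 2.86 and 2.46 RPKM, against 0.730 RPKM, none lower and 14 were not called (median 0.10). The Per3 call was lost after quantile normalization (adjusted p = 0.0678). Without adjustment 2 clock partners were higher and 2 lower. With 1.77% of all tested genes called higher, counts of 1 of 13 and 1 of 15 are no result about either list.

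Of 8 tested genes of retinoid handling and RAR targets, 2 were called higher and 0 lower, and 6 had no call (median 0.30). Dhrs3, a retinal reductase, had 30.5 and 25.6 RPKM in TUDCA, against 9.20 RPKM in DMSO (log2 fold change 1.51 ± 0.25, SE, limma adjusted p = 5.8e-07), and the retinal dehydrogenase Aldh1a1 had 290.2 and 225.0 RPKM, against 122.0 RPKM (1.06 ± 0.20, adjusted p = 2.5e-05). Of 9 tested genes of thyroid hormone handling and TR targets, 1 was called higher and 0 lower, and 8 had no call (median -0.05). A count of 1 of 9 is no result about that list. Serpina7, the thyroxine-binding globulin, had 73.0 and 59.8 RPKM in TUDCA, against 13.1 RPKM in DMSO (2.25 ± 0.23, adjusted p = 2.8e-19). For these 3 genes the TUDCA replicates differed less from each other than from DMSO. Of 3 tested genes of vitamin D handling none was called by limma (2 higher and 0 lower without adjustment, 0 and 0 by voom). Gc, the vitamin D carrier of plasma, had 2239 and 1881 RPKM in TUDCA, against 1566 RPKM in DMSO, and Cyp27a1, a sterol hydroxylase, 52.4 and 60.7 RPKM, against 57.4 RPKM.

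Coactivators and corepressors, through which all these receptors act, had 21 tested genes and no call by limma in either direction (median log2 fold change 0.07, 2 higher and 0 lower without adjustment, and 0 and 0 by voom). The histone demethylase Kdm1a had 47.5 and 45.5 RPKM in TUDCA, against 52.2 RPKM in DMSO, so that DMSO lay above both. Of the called target genes, Abcb4 and Serpina7 stayed called with the filter at 0.3 RPKM, and none was called without a filter.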

How the data were processed

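The mRNA of 2 TUDCA libraries and 1 DMSO library of primary mouse hepatocytes was sequenced. The authors deposited RPKM values, 1 table per library with 37620 Ensembl identifiers. Per the submitters' processing notes, TopHat2 2.0.7 and Bowtie2 were used, as were HTSeq and CASAVA, with no roles stated. Not given in the sources used here: the genome build, the annotation and the strand setting of the counting. Overlapping antisense genes may therefore share reads. The exonic overlaps printed are those of GENCODE M21, which may differ from the exons counted. Symbols matched 32897 identifiers, including all 47 receptors. The members, gene lists, rule for named genes and tests were chosen with earlier results of these data known.

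From the values, whole reads were recovered for all 19146 genes above 0, within 0.001 reads, at totals of 9757547 and 10575699 reads for TUDCA and 10774289 for DMSO. They are the smallest whole numbers that fit, and a gene may hold a multiple of them. They sum to between 95.7% and 95.8% of the totals. Intervals from reads cover counting error only. The gene lengths that fit were below the annotated exon length for many receptors. This bears on levels compared between genes, not on ratios between libraries.

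The 11300 genes whose mean reached 1 RPKM were tested as log2(RPKM + 1), which understates changes of low genes, with limma 3.58.1 in R 4.3.3 (lmFit, eBayes with trend, two-sided, Benjamini-Hochberg over all genes, threshold 0.05). The 1 residual degree of freedom comes from the TUDCA pair, and DMSO, with 1 library, is taken to vary as that pair does. The estimated prior degrees of freedom were infinite, so genes of like level share 1 spread (SD of 0.16 to 0.265) in place of their own. P-values of the main fit thus rest on the spread within the TUDCA pair, pooled over genes, with none from DMSO. They cover these libraries only. Named genes are all receptors and, from each other list, up to 4 called genes with the largest log2 fold change or, where none was called, the 2 highest in RPKM, and the highest marker of each cell type list. Some genes that the rule takes in are not reported here. Alternatives were another pseudocount, 3 other filters, median centring, quantile normalization, limma with robust estimation or with no trend, voom on the recovered reads, and each TUDCA library alone.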

Additional observations from a re-analysis of the deposited data

How the results depend on the processing

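Under the alternative settings no called receptor changed sign. Without a filter limma called 0 genes higher and 0 lower of 19146 (1696 with an unadjusted p below 0.05), and at 0.3 RPKM 12 higher and 14 lower of 13384, against 200 and 99 at 1 RPKM, and 0 receptors were called higher at either filter. The estimated prior degrees of freedom were 6.34 at 0.3 RPKM and 1.11 without a filter, and infinite in the main fit. The cause of the lost calls was not tested. A pseudocount of 0.1, a filter at 5 RPKM, quantile normalization and voom called the same 4 receptors. Median centring and limma without the trend called 3, without Hnf4a, and robust estimation 3, without Nr0b2. Some receptors near 0 turned sign, and the cause was not tested. After median centring the log2 fold change was -0.0224 for Nr1d1 and -0.0193 for Rarg. After quantile normalization it was 0.0388 for Nr2f6, -0.0036 for Rarg, 0.0605 for Rxra, -0.0098 for Thra and -0.0246 for Thrb. The median of the receptors was 0.10 after quantile normalization and 0.14 after median centring (all tested genes -0.0076 and -0.04), and lay between 0.07 and 0.34 when either TUDCA library was left out, a value with no test. No paired analysis was possible because DMSO has 1 library and the labels pair no samples. Receptors with fewer than about 10 reads, among them Nr1i3 in DMSO, are limited by depth.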
